A study of Mus musculus with 8 samples.

Results

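The proteasome genes described here are the rows of the deposited expression table whose gene symbol begins with Psm, then a letter from a to g, then a digit. 50 of the 18770 genes listed match, and 48 of them encode proteasome subunits, activators, an inhibitor or assembly chaperones. The other two, Psmc3ip and Psme3ip1, encode proteins named for binding a proteasome component. The table comes from a study of alpinetin (AP), a plant flavonoid tested for its effect on hair regrowth. Back skin of wildtype C57BL/6 mice was depilated, and either 20 µl of AP at 3 mg per ml in 65% ethanol or the 65% ethanol alone (vehicle control, VC) was applied to it. The sample labels give the age of the mice as 7 to 8 weeks. RNA was taken on day 4 after depilation from skin freed of the interfollicular epidermis, with 4 libraries per group. The comparison asks which transcripts differ between AP and VC skin. The libraries carry the names of the table's columns (AP.1, AP.2 and so on, and likewise for VC), which give the group but not the mouse. Where a value is given for each library, the order is from library 1 to library 4 within a group.

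The proteasome is the protease that degrades ubiquitin-tagged proteins in the cytosol and nucleus. Its barrel-shaped core particle holds the catalytic beta subunits between rings of alpha subunits, and a regulatory particle at either end recognises, unfolds and feeds in the substrate. In cells exposed to interferon gamma, and constitutively in many immune cells, alternative catalytic subunits form the immunoproteasome, which supplies peptides for MHC class I presentation, and other caps can take the place of the regulatory particle.

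The libraries of the 2 groups differed in depth and in composition. The VC libraries held 6454563 to 7264151 reads and the AP libraries 8507783 to 11190113. Mitochondrially encoded genes took 54.3, 44.9, 42.1 and 52.3% of the reads in VC and 11.1, 7.85, 5.32 and 10.3% in AP. Without these genes 3080758 to 3762217 reads remained per VC library and 7561598 to 10594787 per AP library. The keratinocyte differentiation marker Krt10 had 1302, 4085, 2280.3 and 1838 normalized counts in VC and 15852, 17528, 47444 and 73322 in AP. The study's methods describe removal of the interfollicular epidermis, and how complete it was in each sample was not tested. The part of keratinocyte content in the results that follow was not tested, and in whole tissue fewer cells of a type cannot be told apart from less RNA per cell. The values are normalized counts, that is, reads divided by 1 size factor per library, and scaling the libraries by total reads instead moved the median log2 fold change of all 15964 tested genes from 0.06 to 0.90. Fold changes below are against 0 with the deposited scaling, except where they are said to be relative to the median of all tested genes.

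Most proteasome genes had lower values in AP than in VC, although with scaling by total reads most had higher ones, and under both scalings their median lay below that of all tested genes. 49 of the 50 genes passed the filter on low values. Their median log2 fold change was -0.31, against 0.06 over all tested genes, a gap of -0.37. With scaling by total reads the members' median turned to 0.56, and the gap was -0.34. 7 genes fell at an adjusted p under 0.05, 14.3% of those tested, where 4.0% of all tested genes did. They were Psmd4, Psmb1, Psmg3, Psmb4, Psme3ip1, Psme2 and Psmc4. 0 were higher at that threshold by limma, where 6.33% of all tested genes were. At an unadjusted p under 0.05 limma gave 2 members higher and 16 lower, beside 2720 and 2120 of the 15964 tested genes. On the recovered reads, edgeR, DESeq2 and limma-voom gave 0, 0 and 0 higher and 7, 10 and 6 lower at an adjusted p under 0.05. Over all tested genes they called 992, 1677 and 715 higher and 737, 1362 and 723 lower. Scaled by total reads, 30 members were called higher and 0 lower, beside 8657 and 70 of all tested genes. The ranges of adjusted p over all alternatives, given below, include this scaling. With the mitochondrially encoded genes left out, scaling by the total of the remaining reads gave a members' median of -0.27 (all tested genes 0.10), with 39 of 49 below 0, 4 called lower and 0 higher, beside 526 and 949 of all tested genes. With the reads of every library drawn down to the smallest total outside those genes, the members' median was -0.30, with 39 of 49 below 0, 6 called lower and 0 higher, beside 591 and 972 of all tested genes. With the trend on transcript length removed, the members' median was -0.09 against -0.01 over all tested genes, a gap of -0.08, with 32 of 49 below 0. Under that setting 3 members were called lower and 1 higher, beside 1027 of all tested genes in either direction. Without the intensity trend of limma, 1 was called lower, Psmg3, and 0 higher, beside 216 and 376 of all tested genes. The count of 7 was smaller without any single library: 4 without AP.1, 0 without AP.2, 0 without AP.3, 1 without AP.4, 2 without VC.1, 2 without VC.2, 4 without VC.3 and 3 without VC.4. Calls in either direction over all tested genes, 1650 with all libraries, were 1899, 553, 303, 393, 846, 1496, 1528 and 1198 in the same order. Without AP.1 these rose while the count of members fell.

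By log2 fold change, 39 of the 49 tested members lay below 0, which is 79.6%, and 10 above. Over all tested genes 46.5% lay below 0 and 53.5% above. In 13 members every AP library was below every VC library, 26.5% of those tested against 8.91% of all tested genes: Psma4, Psmb1, Psmb2, Psmb4, Psmb6, Psmc1, Psmc4, Psmd4, Psmd9, Psmg1, Psmg3, Psme2 and Psme3ip1. In 1, the lid subunit Psmd6, every AP library was above every VC library, where 10.3% of all tested genes had that order. By the criteria the study used, which ask for p under 0.01 before adjustment together with more than 1.5-fold, limma called 5 members lower and 0 higher, beside 5.32% and 8.26% of all tested genes. The reads of all members together made up 0.564, 0.648, 0.616 and 0.552% of the reads outside the mitochondrially encoded genes in VC and 0.503, 0.491, 0.496 and 0.550% in AP. Every AP library was below every VC library in this share, by a narrow margin between AP.4 and VC.4.

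**Figure D1:**
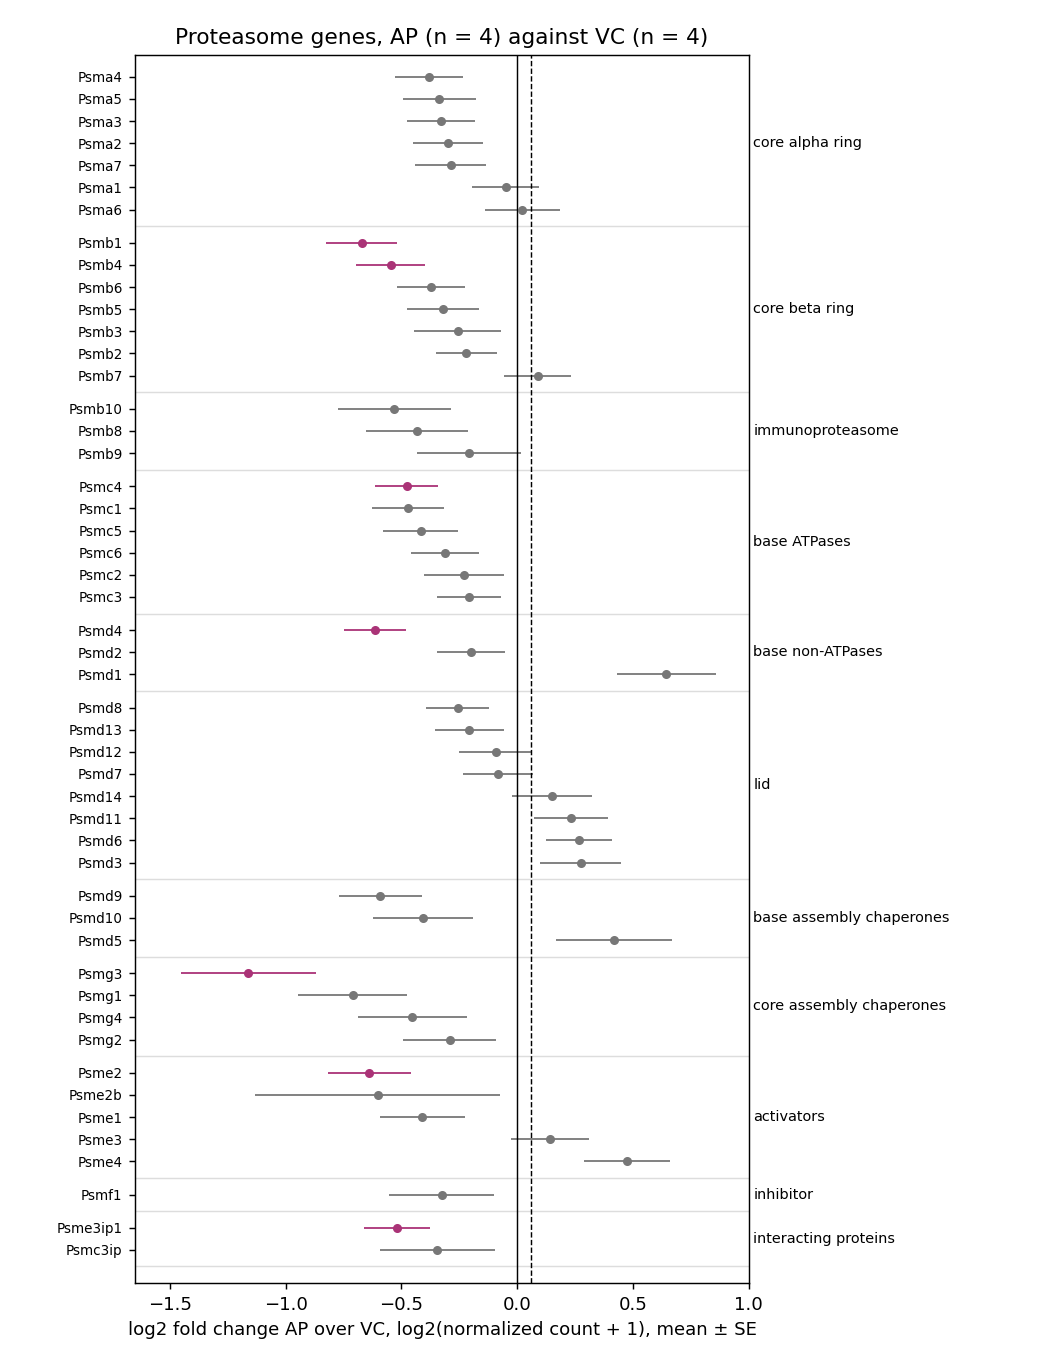
Log2 fold change of each tested proteasome gene between 4 AP and 4 VC libraries, on the log2(normalized count + 1) scale, grouped by role (points, fitted value; bars, SE; purple, adjusted p under 0.05; solid line, 0; dashed line, the median of all tested genes at 0.06). 39 of 49 points lie left of 0, the lid subunits lie on both sides of it, and with scaling by total reads the median of the points moved from -0.31 to 0.56.

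The core particle was represented by all 14 constitutive subunits, Psma1 to Psma7 of the alpha ring and Psmb1 to Psmb7 of the beta ring. Their median log2 fold change was -0.31, and 2 fell and 0 rose at an adjusted p under 0.05 (unadjusted p under 0.05: 5 lower and 0 higher; edgeR 2 and 0, DESeq2 2 and 0, limma-voom 2 and 0). Both that fell are non-catalytic beta subunits. Psmb1 (ENSMUSG00000014769, chr17:15475021-15499751 of mm10, minus strand) had 2101, 1699, 1587 and 1545 normalized counts in VC and 1081, 1047, 969 and 1235 in AP. All AP libraries were below all VC libraries, and the level was 1.59-fold higher in VC (log2 fold change -0.67, SE 0.15, adjusted p = 0.0240 by limma). Psmb4 (ENSMUSG00000005779, chr3:94884093-94886961, minus strand), whose tail clasps the opposite beta ring, had 2039, 1541, 1482 and 1526 normalized counts in VC and 1126, 1105, 1051 and 1196 in AP. The groups did not overlap, VC.1 stood above the other VC libraries, and the fold was 1.46 (log2 fold change -0.55, SE 0.15, adjusted p = 0.0415 by limma). Psmb1 did not pass the test without AP.2 (0.0674), AP.3 (0.0871) and VC.1 (0.0511), and Psmb4 did not without AP.1 (0.0592), AP.2 (0.0988), AP.3 (0.126), AP.4 (0.0844), VC.1 (0.0800), VC.2 (0.0564) and VC.4 (0.0547), in ranges of 0.000856 to 0.307 and 0.00527 to 0.250 over all alternatives. Relative to the median of all tested genes the differences were -0.73 and -0.60. With scaling by total reads the log2 fold changes turned to 0.20 and 0.32, which are -0.70 and -0.58 relative to the median under that scaling.

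The constitutive catalytic subunits did not pass the test by limma. Psmb5, the chymotrypsin-like subunit, had 1029.6, 1259, 1036 and 900.0 normalized counts in VC and 844, 789.9, 754 and 988 in AP. AP.4 lay within the VC range (log2 fold change -0.32, SE 0.15, adjusted p = 0.187 by limma). 57.1% of the 50-base words of its transcript also occur in transcripts of other genes, mostly the predicted gene Gm3375, so its counts are uncertain. Psmb6, the caspase-like subunit, had 1037, 949, 779.7 and 932 normalized counts in VC and 741, 746, 612 and 750.3 in AP, with no overlap of the groups (log2 fold change -0.37, SE 0.15, adjusted p = 0.116 by limma). Psmb7, the trypsin-like subunit, had 657, 789, 711 and 632 normalized counts in VC and 656, 745, 717 and 848 in AP, and the groups overlapped (log2 fold change 0.09, SE 0.14, adjusted p = 0.717 by limma). It had the highest fold change of the beta ring, and its exons overlap those of Nek6 on the opposite strand, which counting without strand cannot separate. Psmb2 and Psmb3 gave log2 fold changes of -0.22 and -0.26, and 55.8% of the words of Psmb3 are shared with other genes.

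In the alpha ring, which forms the gate of the barrel, log2 fold changes ran from -0.38 to 0.02 with a median of -0.30, and none passed the test by limma, edgeR, DESeq2 or limma-voom (2 were lower at an unadjusted p under 0.05, Psma3 and Psma4). The lowest was Psma4, with 1051, 1132, 964 and 874 normalized counts in VC and 809, 714, 694 and 871 in AP. Its AP values all lay below its VC values, by a narrow margin between AP.4 and VC.4 (log2 fold change -0.38, SE 0.15, adjusted p = 0.110 by limma). The highest was Psma6, with 769, 851, 629 and 688 normalized counts in VC and 756, 707, 628 and 898 in AP, where AP.4 held the highest value of all 8 libraries (log2 fold change 0.02, SE 0.16, adjusted p = 0.943 by limma). The remaining 5 were Psma1 at -0.05, Psma2 at -0.30, Psma3 at -0.33, Psma5 at -0.34 and Psma7 at -0.29, and 55.4% of the words of Psma5, 31.5% of Psma4 and 22.0% of Psma3 are shared with other genes. Summed over the alpha ring, the normalized counts were 6796, 7157, 6145 and 5743 in VC and 5378, 5081, 4951 and 6337 in AP. AP.4 overlapped the VC libraries in that sum. The sum over the beta ring was 8542, 7732, 7009 and 6724 in VC and 5623, 5710.5, 5162 and 6339 in AP, with no overlap. Psma8, the alpha subunit of male germ cells, had 2 reads in VC.3 and AP.3, 1 in AP.1 and AP.2 and 0 in the other 4 libraries, and did not pass the filter. A count of 0 allows up to 3 reads, which is 2.15 to 5.63 normalized counts in those 4, for counting error only. Psmb11, the thymus subunit, is not among the genes listed.

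The immunoproteasome subunits overlapped between the groups. Psmb8, which replaces Psmb5, had 357, 344, 401 and 613 normalized counts in VC and 403, 321, 248 and 283 in AP. The highest value was in VC.4, and AP.1 exceeded VC.1, VC.2 and VC.3 (log2 fold change -0.43, SE 0.22, adjusted p = 0.207 by limma). Psmb9, which replaces Psmb6, had 207, 173, 172 and 308 normalized counts in VC and 214, 162, 156 and 196 in AP. VC.4 again stood highest and the groups overlapped (log2 fold change -0.21, SE 0.22, adjusted p = 0.559 by limma). Psmb10, which replaces Psmb7, had 364, 321, 314 and 561 normalized counts in VC and 371, 243, 192 and 273 in AP, with VC.4 highest and AP.3 lowest (log2 fold change -0.53, SE 0.24, adjusted p = 0.165 by limma). With 1 library left out the log2 fold changes were -0.56 to -0.25 for Psmb8, -0.30 to -0.02 for Psmb9 and -0.70 to -0.34 for Psmb10. The median log2 fold change of the 3 was -0.43, and 0 fell and 0 rose by limma (1 lower and 0 higher at an unadjusted p under 0.05; 0 in either direction by edgeR, DESeq2 or limma-voom). Exons of Psmb9 overlap those of Tap1, and exons of Psmb8 an antisense transcript, on opposite strands.

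The balance of immunoproteasome and constitutive subunits within each library does not depend on scaling. The log2 ratio of Psmb8 to Psmb5 was -1.53, -1.87, -1.37 and -0.55 in VC and -1.06, -1.30, -1.60 and -1.80 in AP. VC.4 had the highest ratio and VC.2 the lowest, so that the VC libraries spanned the AP libraries, and the means differed by -0.11 (AP minus VC), or -0.24 without AP.1, -0.06 without AP.3, 0.01 without AP.4, -0.18 without VC.1, -0.29 without VC.2 and 0.15 without VC.4. The log2 ratio of Psmb9 to Psmb6 was -2.32, -2.45, -2.17 and -1.60 in VC and -1.79, -2.20, -1.96 and -1.93 in AP, a difference of means of 0.16, or 0.10 without VC.1, 0.06 without VC.2, 0.34 without VC.4 and 0.10 without AP.1. The log2 ratio of Psmb10 to Psmb7 was -0.85, -1.30, -1.18 and -0.17 in VC and -0.82, -1.61, -1.90 and -1.63 in AP, a difference of -0.62, or -0.38 without VC.4 and -0.84 without AP.1. The groups overlapped in each of these ratios. Per length of transcript, Psmb8 stood at 0.233 ± 0.0988 (SD, n = 4) of the level of Psmb5 in VC and 0.207 ± 0.0467 (SD, n = 4) in AP. The same quotient was 0.138 ± 0.0391 and 0.151 ± 0.0175 (SD, n = 4 each) for Psmb9 over Psmb6, and 0.507 ± 0.194 and 0.328 ± 0.117 for Psmb10 over Psmb7. In both groups the constitutive transcripts were thus the more abundant per length.

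**Figure D2:**
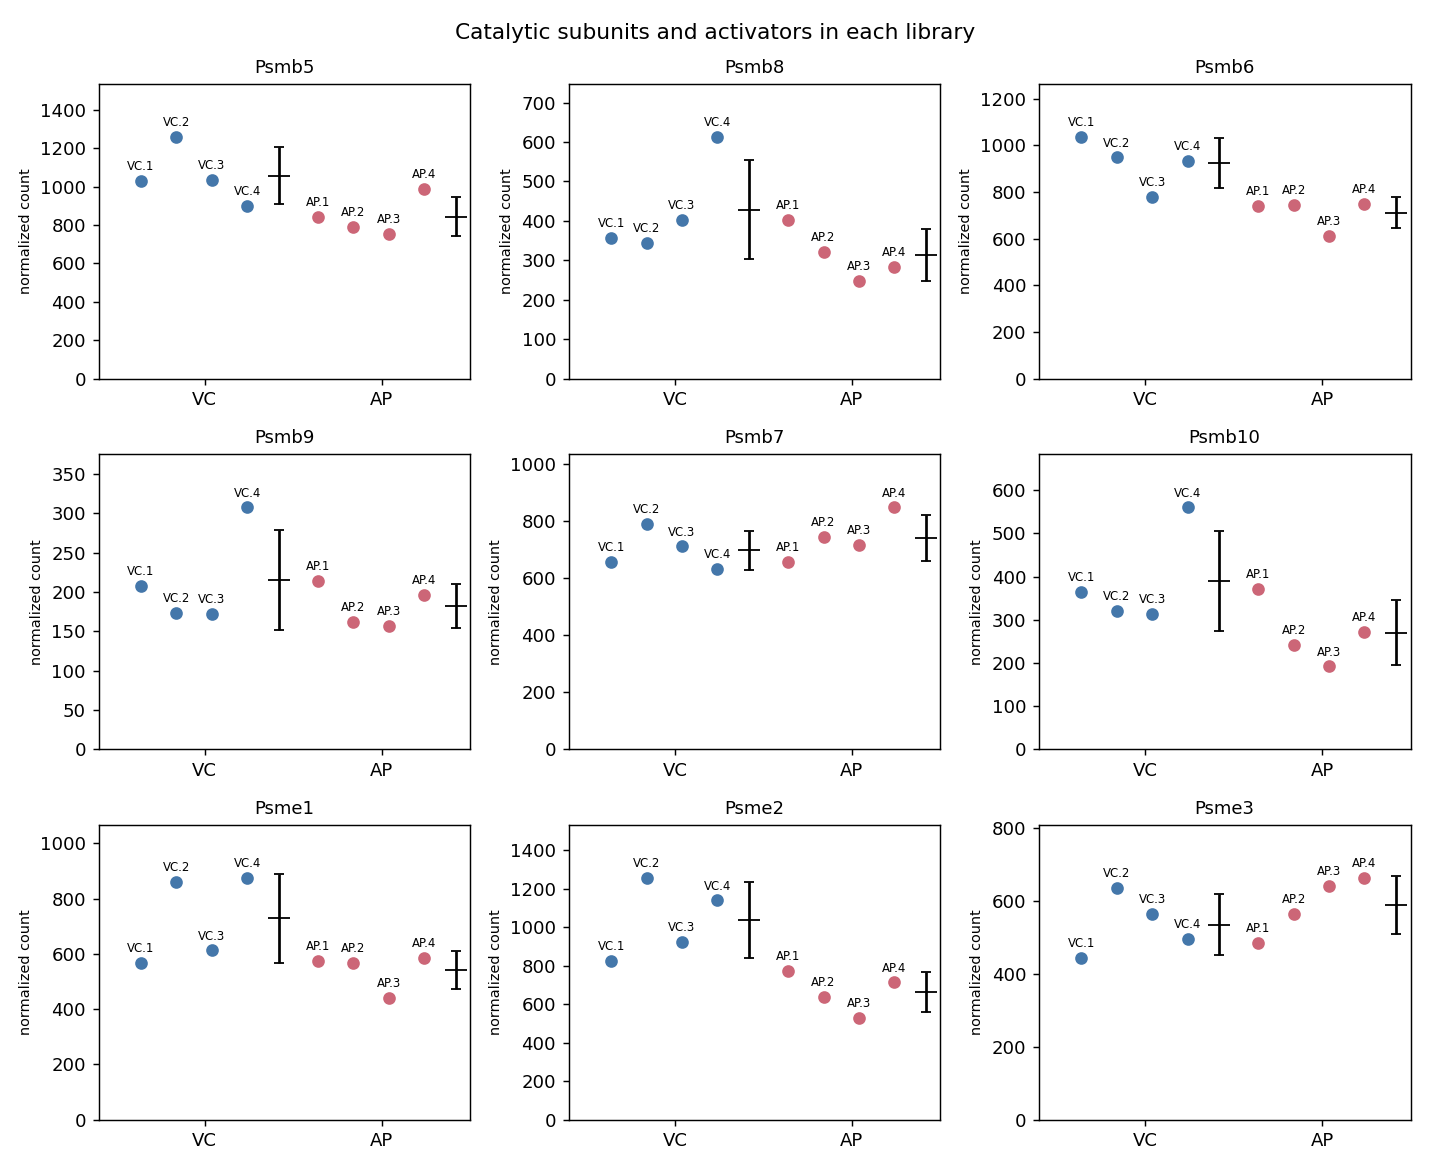
Normalized counts (linear axes from 0) of the constitutive catalytic subunits, their immunoproteasome counterparts and the ring activators in each of the 4 VC (blue) and 4 AP (red) libraries, with mean and SD as black bars. VC.4 has the highest value of Psmb8, Psmb9, Psmb10 and Psme1, and of these 9 genes Psmb6 and Psme2 show no overlap between the groups, with scaling by the deposited size factors.

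Leukocyte markers and the genes of MHC class I presentation were listed beside the immunoproteasome. Cd74, the invariant chain of MHC class II and the leukocyte marker with the highest mean in both groups, had 7374, 5401, 3378 and 13343 normalized counts in VC and 7666, 4621, 4932 and 4947 in AP. VC.4 was again the highest library. For the 8 leukocyte markers (Ptprc, Cd3e, Cd74, Lyz2, Adgre1, Cd68, H2-Aa and Itgam), summed normalized counts were 21752, 12434, 9184 and 31680.3 in VC and 15604, 10206, 9644 and 9640.0 in AP, and none was at 0 in any library. Their median log2 fold change was -0.51 and 7 of 8 lay below 0, while with scaling by total reads only Lyz2 and Cd68 did, at -0.21 and -0.02. Without VC.4, Ptprc and Cd74 lay above 0 (0.07 and 0.08). 0 of the 8 tested genes passed the test as higher and 0 as lower (by limma; at an unadjusted p under 0.05, 1 higher and 3 lower; edgeR 0 and 0, DESeq2 0 and 2, limma-voom 0 and 0). Lyz2 was called lower without VC.3 (0.0406) and Adgre1 without VC.2 (0.0239), in ranges of 0.0137 to 0.557 and 0.0239 to 0.991 over all alternatives. Their part in the immunoproteasome values was not tested. Of the class I presentation genes and their regulators (Irf1, Nlrc5, Tap1, Tap2, Tapbp, B2m, H2-K1, H2-D1 and Erap1), 1 of the 9 tested genes passed the test as higher and 0 as lower (by limma; at an unadjusted p under 0.05, 1 higher and 0 lower; edgeR 1 and 0, DESeq2 1 and 0, limma-voom 1 and 0). The median log2 fold change was 0.17, and 9 of 9 lay above 0, but Irf1, Tapbp, B2m, H2-K1 and H2-D1 lay below 0 without at least 1 of the libraries (lowest values -0.036, -0.011, -0.115, -0.028 and -0.049) and Erap1 with the length trend removed (-0.15). B2m was also below 0 by edgeR, at -0.003. The gene that rose was Nlrc5, the class I transactivator, with 58.2, 121, 137 and 60.0 normalized counts in VC and 196, 155, 284 and 263 in AP and no overlap (log2 fold change 1.31, SE 0.32, adjusted p = 0.0308 by limma; not past the threshold without AP.3 (0.103), AP.4 (0.0891), VC.1 (0.0669) and VC.4 (0.0601), in a range of 0.00163 to 0.103 over all alternatives). With the length trend removed Nlrc5 was at 0.89 and did not pass either (adjusted p = 0.0978 by limma). The lowest of the list was B2m, the class I light chain, with 4368, 3532, 2896 and 4733 normalized counts in VC and 4194, 4566, 3387 and 3420.3 in AP, which overlapped (log2 fold change 0.02, SE 0.20, adjusted p = 0.964 by limma). Irf1, a transcription factor of the interferon response, gave 0.18 and was highest in VC.4.

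The regulatory particle consists of a base, which holds the ATPase ring, and a lid. Over its 17 subunits taken by the rule, which leaves out Adrm1 and Sem1, the median log2 fold change was -0.21. Of the 17, 2 fell and 0 rose at an adjusted p under 0.05 (unadjusted p under 0.05: 4 lower and 1 higher; edgeR 1 and 0, DESeq2 3 and 0, limma-voom 1 and 0). All 6 ATPases, Psmc1 to Psmc6, which unfold the substrate, had log2 fold changes below 0, from -0.48 to -0.21, with scaling by total reads the exception, where they ran from 0.39 to 0.66. Psmc4 (ENSMUSG00000030603, chr7:28041707-28050101, minus strand) had 657, 807, 752 and 761 normalized counts in VC and 537, 490.1, 525 and 583 in AP. The groups did not overlap, and the adjusted p lay just inside the threshold (log2 fold change -0.48, SE 0.14, adjusted p = 0.0489 by limma; 0.0515 by edgeR, and 0.00707 to 0.284 over all alternatives). It did not pass without AP.1 (0.0707), AP.2 (0.125), AP.3 (0.134), AP.4 (0.0885), VC.1 (0.0544), VC.2 (0.0891), VC.3 (0.0718) and VC.4 (0.0756). The smallest difference was that of Psmc3, with 1324, 1232, 1062 and 1191 normalized counts in VC and 1118, 971, 967 and 1100.0 in AP, where the groups overlapped (log2 fold change -0.21, SE 0.14, adjusted p = 0.330 by limma). Psmc1, Psmc2, Psmc5 and Psmc6 gave -0.47, -0.23, -0.42 and -0.31.

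Among the non-ATPase subunits of the base, the ubiquitin receptor Psmd4 had the smallest adjusted p of all members. Psmd4 (ENSMUSG00000005625, chr3:95032694-95042614, minus strand) had 1004, 1156, 1004 and 992 normalized counts in VC and 729, 635, 628 and 723 in AP. Every AP library was below every VC library, and the level was 1.53-fold higher in VC (log2 fold change -0.61, SE 0.14, adjusted p = 0.0217 by limma; -0.67 relative to the median gene). With scaling by total reads the log2 fold change turned to 0.26, which is -0.64 relative to the median gene under that scaling. With the deposited scaling the call was lost without AP.2 (0.0652), AP.3 (0.0816) and AP.4 (0.0528), and over all alternatives the adjusted p was 0.000241 to 0.242. Psmd1, a large scaffold of the base, had 238, 452, 315 and 401 normalized counts in VC and 441, 499, 627 and 592 in AP. This was the highest fold change of all members, VC.1 held the lowest value and VC.2 overlapped AP.1, and it did not pass the test (log2 fold change 0.64, SE 0.21, adjusted p = 0.0716 by limma). Psmd1 did pass without VC.2, at 0.0484. Over all alternatives its adjusted p was 0.00141 to 0.194, with the low end from scaling by total reads, under which 30 members were called higher. 8.36% of its words are shared with the overlapping gene Gm21972. The other scaffold, Psmd2, had a log2 fold change of -0.20, and 26.4% of its words are shared with other genes.

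The lid removes ubiquitin chains. Its 8 subunits taken by the rule lay near the median of all tested genes with the deposited scaling, and above it with the trend on length removed. Of these 8, 4 lay above 0 and 4 below, with a median of 0.03, close to the 0.06 of all tested genes. By limma, edgeR, DESeq2 or limma-voom 0 rose and 0 fell (0 and 0 at an unadjusted p under 0.05). Sem1, a further lid subunit outside the rule, gave -0.50 (adjusted p = 0.118 by limma) and is not in these counts. With the trend on transcript length removed the median of the 8 was 0.16, where that of all tested genes was -0.01. Under that setting 2 of the 8 lay below 0, 1, Psmd6, was called higher, and Sem1 was at -0.28. Whether lid and base differ was not tested. Psmd3 had the highest fold change, with 611, 1019.7, 873 and 726 normalized counts in VC and 862, 958, 966 and 1060.0 in AP, and the groups overlapped (log2 fold change 0.27, SE 0.17, adjusted p = 0.311 by limma). Psmd8 had the lowest of the 8, with 1151, 1130.5, 993 and 1157 normalized counts in VC and 961, 827, 902 and 1019.9 in AP, of which VC.3 lay below the other VC libraries and below AP.4 (log2 fold change -0.26, SE 0.14, adjusted p = 0.226 by limma). Psmd6 is the member whose AP values all lay above its VC values, at 511 to 607 against 392 to 504, with a log2 fold change of 0.27. Psmd14, the deubiquitinase of the lid, gave 0.15, and Psmd7, its partner, -0.08. Psmd11 gave 0.23, Psmd12 -0.09 and Psmd13 -0.21. Summed over the lid the normalized counts were 4893, 5593, 4816 and 4838 in VC and 4862, 4733, 4912 and 5723 in AP, with AP.2 the lowest and AP.4 the highest. Exons of Psmd13 overlap those of Sirt3 on the opposite strand (15.8% of its words are shared with other genes), and 18.9% of the words of Psmd11 are shared.

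Among the activators, Psme1 and Psme2 form the interferon-inducible ring that caps the core particle without ATP. Psme2 (ENSMUSG00000079197, chr14:55587441-55591113, minus strand) had 826, 1258, 924 and 1140.0 normalized counts in VC and 772, 637, 530.1 and 714 in AP. The groups did not overlap, and the level was 1.56-fold higher in VC (log2 fold change -0.64, SE 0.18, adjusted p = 0.0452 by limma). It did not pass the test without AP.2 (0.105), AP.3 (0.141), AP.4 (0.0889), VC.2 (0.0888), VC.3 (0.0550) and VC.4 (0.0845), and over all alternatives the adjusted p was 0.0133 to 0.369. 59.3% of its 50-base words also occur in Psme2b, a near-identical copy, so reads could be split between them. Psme2b had 19, 13, 6 and 8 reads in VC and 18, 28, 13 and 15 in AP, few beside the counts of Psme2 (log2 fold change -0.60, SE 0.53). Psme1 had 568, 860.1, 613 and 876 normalized counts in VC and 574, 566, 441 and 586 in AP. VC.2 and VC.4 were high, while VC.1 lay below AP.1 and AP.4 (log2 fold change -0.41, SE 0.18, adjusted p = 0.160 by limma). Psme3, which forms the nuclear ring, had 444, 637, 565 and 495 normalized counts in VC and 486, 566, 641 and 664 in AP, with overlap (log2 fold change 0.14, SE 0.17, adjusted p = 0.600 by limma). Psme4, the large single-chain activator, had 358, 485, 527 and 321 normalized counts in VC and 521, 536, 644 and 607 in AP. VC.3 exceeded AP.1, and it did not pass the test (log2 fold change 0.47, SE 0.19, adjusted p = 0.114 by limma). With the length trend removed the log2 fold change of Psme4 was 0.09. The log2 ratio of Psme2 to Psme3 within each library was 0.89, 0.98, 0.71 and 1.20 in VC and 0.67, 0.17, -0.27 and 0.10 in AP, so every AP library had a lower ratio than every VC library. With the length trend removed the log2 fold changes of Psme2 and Psme3 were -0.33 and 0.15, against -0.64 and 0.14 with it. The ratio of Psme1 to Psme3 overlapped between the groups, at 0.43 ± 0.29 in VC and -0.12 ± 0.33 in AP (SD, n = 4 each). Psmf1, an inhibitor of the core particle in vitro, had 193, 199, 149 and 281 normalized counts in VC and 190.0, 159, 169.9 and 127 in AP, with VC.4 highest and AP.4 lowest (log2 fold change -0.33, SE 0.23, adjusted p = 0.356 by limma). Its log2 fold change was -0.47 to -0.16 with 1 library left out. Over the 5 activators the median was -0.41, with 3 below 0 and 2 above, and with scaling by total reads it was 0.46.

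The assembly chaperones do not stay in the finished particle. Psmg1 to Psmg4 guide the alpha ring, and Psmd5, Psmd9 and Psmd10 the ATPase ring. 6 of the 7 lay below 0, with a median of -0.45 that turned to 0.41 with scaling by total reads, and 1 fell and 0 rose (by limma; unadjusted p under 0.05: 3 lower and 0 higher; edgeR 2 and 0, DESeq2 3 and 0, limma-voom 1 and 0). Psmg3 (ENSMUSG00000029551, chr5:139823592-139826885, minus strand), which works as a pair with Psmg4, had 131, 87.2, 68.3 and 75.0 normalized counts in VC and 36.3, 35.0, 36.9 and 47.2 in AP. All AP libraries lay below all VC libraries, with AP.4 above the other 3 of its group, the level was 2.24-fold higher in VC, and this was the lowest fold change of all members (log2 fold change -1.16, SE 0.29, adjusted p = 0.0330 by limma). It was also below 0 with scaling by total reads, at -0.30. It did not pass the test without AP.2 (0.0834), AP.3 (0.0979), AP.4 (0.0658), VC.1 (0.0590) and VC.2 (0.0538), and over all alternatives the adjusted p was 0.000924 to 0.384. 22.7% of its words are shared with the overlapping gene Gm26938, so part of its counts is uncertain. Psmg2 had the highest fold change of the 4 chaperones of the core, with 178, 124, 153 and 174 normalized counts in VC and 133, 114, 119.6 and 145 in AP and overlap between the groups (log2 fold change -0.29, SE 0.20, adjusted p = 0.353 by limma). Psmg1 and Psmg4 gave -0.71 and -0.45, the first without overlap of the groups. Of the base chaperones, Psmd9 had 300.1, 242, 266 and 369 normalized counts in VC and 212, 190.3, 171 and 199.6 in AP. The groups did not overlap and the test was missed (log2 fold change -0.59, SE 0.18, adjusted p = 0.0570 by limma; edgeR gave 0.0490, and all alternatives 0.0157 to 0.239). Its exons overlap the noncoding gene Gm26745 on the opposite strand. Psmd5 lay above 0, with 106, 195, 247 and 178 normalized counts in VC and 199, 242, 219 and 276 in AP, VC.1 being the lowest and VC.3 inside the AP range (log2 fold change 0.42, SE 0.25, adjusted p = 0.284 by limma). Psmd10 gave -0.41.

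The 2 matched genes that are not part of the proteasome were Psme3ip1, a nuclear binding partner of the Psme3 ring, and Psmc3ip, a meiotic recombination factor. Psme3ip1 (ENSMUSG00000031774, chr8:94574138-94601997, minus strand) had 373, 369, 367 and 354 normalized counts in VC and 261, 252, 232 and 275 in AP. The VC libraries, with an SD of 8.09 (n = 4), all lay above the AP libraries (log2 fold change -0.52, SE 0.14, adjusted p = 0.0421 by limma). The call was lost without AP.1 (0.0591), AP.2 (0.0996), AP.3 (0.138), AP.4 (0.0852), VC.1 (0.0724), VC.2 (0.0676), VC.3 (0.0610) and VC.4 (0.0569), and over all alternatives the adjusted p was 0.00397 to 0.139. Psmc3ip had 153, 129, 154 and 95.6 normalized counts in VC and 102, 95.4, 81.7 and 139 in AP, with overlap (log2 fold change -0.34, SE 0.25, adjusted p = 0.371 by limma), and 27.1% of its words are shared with the antisense neighbour Mlx.

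The 7 calls rested on all 8 libraries. Without AP.2 or without AP.3 none of the 7 was called, with adjusted p of 0.0652 to 0.125 and 0.0816 to 0.141, and the count over all tested genes dropped from 1650 to 553 and 303. Without AP.4, Psmb1 remained (adjusted p of the 7 genes 0.0489 to 0.0889), and without AP.1, Psmb1, Psmd4, Psme2 and Psmg3 (0.0243 to 0.0707). Without VC.1, Psmd4 and Psme2 remained (0.0402 to 0.0800), and without VC.2, Psmb1 and Psmd4 (0.0395 to 0.0891). Without VC.3, Psmb1, Psmb4, Psmd4 and Psmg3 remained (0.0351 to 0.0718), and without VC.4, Psmb1, Psmd4 and Psmg3 (0.0322 to 0.0845). The count over all tested genes rose to 1899 without AP.1. It was 393 without AP.4, 846 without VC.1, 1496 without VC.2, 1528 without VC.3 and 1198 without VC.4. The log2 fold changes of the 7 genes stayed between -1.28 and -0.44, and the medians of all members between -0.39 and -0.26.

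Proteasome transcripts are short, and fold changes rose with transcript length in these libraries. The longest coding transcripts of the tested members had a median of 1440 nt, against 2946 nt over all tested genes. Spearman's rho between length and log2 fold change was 0.37 across the 49 members, 0.27 across 15964 tested genes and 0.44 across the 11257 tested genes with a mean of at least 50, as a description, since genes share the libraries and are not independent. On the log2 fold change scale, members under 2000 nt (36 genes) had a median of -0.34, where all 4690 tested genes of that length had -0.23. Members of 2000 nt or more (13 genes) had a median of -0.20, where all 11274 such genes had 0.16. Most of the gap between short members and the median gene was thus shared by other short genes. With genes divided by length into 10 equal classes, 33 of the 49 members (67.3%) lay below the median of their own class. The 7 called genes were among them by their selection, since all had log2 fold changes below the lowest class median of -0.28.

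With the trend on length removed from each library, the median of the members was -0.09 and that of all tested genes -0.01, a gap of -0.08. Psmd4, Psmb1 and Psme3ip1 still fell, at log2 fold changes of -0.47, -0.56 and -0.56 (adjusted p = 0.0475, 0.0486 and 0.0413 by limma; over all alternatives 0.000241 to 0.307). Psmg3, Psmb4, Psme2 and Psmc4 did not, at -0.85, -0.25, -0.33 and -0.24 (adjusted p = 0.0767, 0.250, 0.270 and 0.284). Psmd6 then rose, at 0.52 (adjusted p = 0.0414 by limma). Its range over all alternatives was 0.000764 to 0.429, with the low end from scaling by total reads. The medians of the roles moved to -0.03 for the core particle, -0.09 for the regulatory particle (0.16 for its lid), -0.25 for the immunoproteasome, -0.11 for the activators and -0.17 for the assembly chaperones. What sets the relation to length was not tested.

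**Figure D3:**
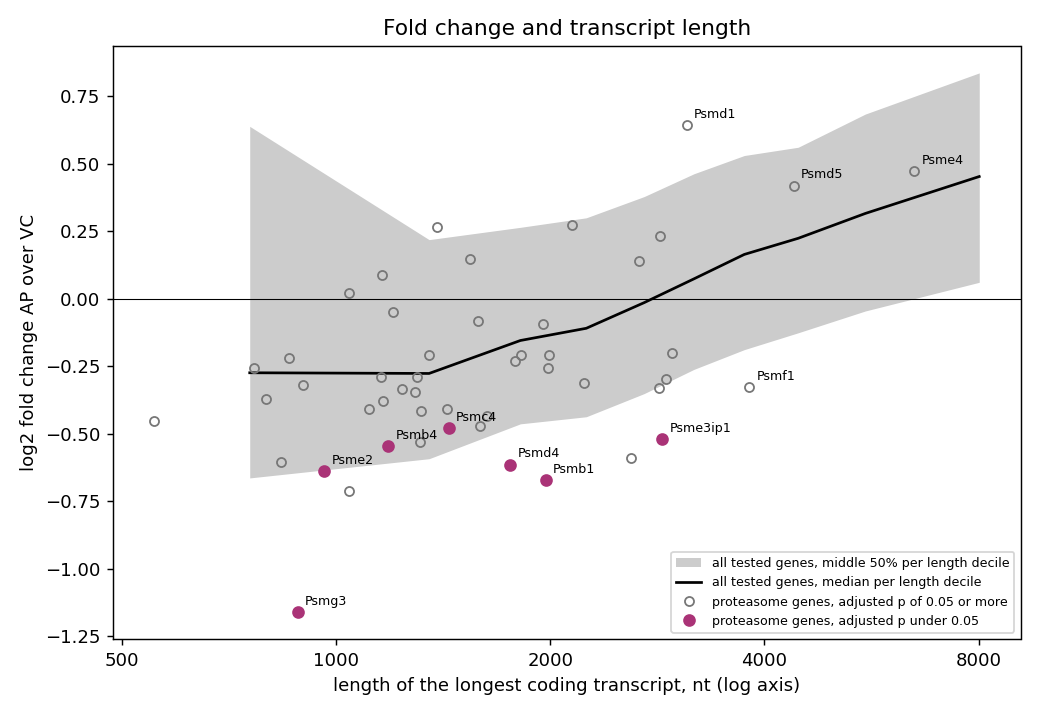
Log2 fold change between AP and VC (4 libraries each) of the 49 tested proteasome genes against the length of the longest coding transcript in nt (log axis), with the median (line) and middle 50% (grey) of all tested genes in each of 10 length classes; filled points have an adjusted p under 0.05. The line is higher for longer genes. The 7 filled points were selected as called lower and lie below the line for that reason. With scaling by total reads the whole plot shifts up, the median of all genes to 0.90.

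Levels per kilobase of transcript put the subunits of the particle on a common scale. In the core particle they ran from 277 (Psma2) to 1392 (Psmb4) normalized counts per kilobase in VC, a 5.02-fold range, and from 226 (Psma2) to 972 (Psmb3) in AP, a 4.30-fold range. The regulatory particle ran from 113 (Psmd1) to 831 (Psmc5) in VC and from 164 (Psmd11) to 622 (Psmc5) in AP. The medians in VC were 784 for the core particle, 411 for the regulatory particle, 263 for the immunoproteasome and 115 for the assembly chaperones. In AP they were 651, 387, 193 and 87.0, in the same order. Psme2 led the activators at 1078 in VC and 689 in AP, ahead of Psme1 (656 and 487), Psme3 (201 and 221) and Psme4 (65.1 and 88.9).

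Among proteasome proteins whose symbols the rule does not take, 7 of 9 lay below 0 and 2 above. Over all tested genes 46.5% lay below 0 and 53.5% above. Of Adrm1, Sem1, Pomp, Uchl5, Usp14, Ube3c, Txnl1, Ecpas and Akirin2, 1 of the 9 tested genes passed the test as higher and 1 as lower (by limma; at an unadjusted p under 0.05, 2 higher and 3 lower; edgeR 1 and 1, DESeq2 1 and 1, limma-voom 1 and 1), and the median was -0.03. Paaf1 is not among the genes listed. Pomp, the chaperone that completes the core particle, had 1439, 1185, 1091 and 953 normalized counts in VC and 773, 675, 637 and 836 in AP. All AP libraries lay below all VC libraries (log2 fold change -0.67, SE 0.17, adjusted p = 0.0312 by limma). The call was lost without AP.2 (0.0843), AP.3 (0.105), AP.4 (0.0562), VC.1 (0.0661) and VC.2 (0.0535), in a range of 0.00374 to 0.347 over all alternatives, and with scaling by total reads the log2 fold change was 0.20. Ube3c, a ubiquitin ligase that acts at the proteasome, had 216, 236, 294 and 212 normalized counts in VC and 299.5, 419, 464 and 412 in AP, with all AP libraries above all VC libraries (log2 fold change 0.73, SE 0.19, adjusted p = 0.0342 by limma). The call was lost without AP.2 (0.0904), AP.3 (0.116), AP.4 (0.0916), VC.1 (0.0705), VC.2 (0.0548) and VC.4 (0.0635), in a range of 0.00102 to 0.116 over all alternatives, scaling by total reads included. With the length trend removed Ube3c was at 0.45 and did not pass either (adjusted p = 0.115 by limma).

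Genes listed with proteasome gene transcription and with ubiquitin supply followed. Of Nfe2l1, Nfe2l2, Ddi2, Ngly1, Stub1, Nfya, Nfyb, Nfyc, Foxo4 and Stat3, 0 of the 10 tested genes passed the test as higher and 1 as lower (by limma; at an unadjusted p under 0.05, 2 higher and 2 lower; edgeR 0 and 1, DESeq2 1 and 1, limma-voom 0 and 1), with a median of 0.18. The gene that fell was Stub1, which is not a transcription factor but a ubiquitin ligase that works with chaperones. Stub1 had 1423, 1096, 1178 and 1179 normalized counts in VC and 748, 615, 649 and 712 in AP. The groups did not overlap (log2 fold change -0.84, SE 0.14, adjusted p = 0.0103 by limma), and it passed the test without any single library. Over all alternatives the adjusted p was 2.97e-06 to 0.868, and with scaling by total reads the log2 fold change was 0.03 and did not pass. Ddi2, the protease that activates Nfe2l1, had the highest fold change, with 429, 433, 589 and 418 normalized counts in VC and 474, 719, 846 and 686 in AP and overlap (log2 fold change 0.53, SE 0.20, adjusted p = 0.101 by limma). It was past the threshold without AP.1 (0.0336), in a range of 0.00185 to 0.922 over all alternatives, scaling by total reads included. Nfe2l1 itself, the transcription factor that drives proteasome genes when the proteasome is impaired, gave 0.28. With the length trend removed both Ddi2 and Nfe2l1 were at 0.03, and Nfe2l2 was the highest of the list at 0.33. Of the ubiquitin and activating enzyme genes Ubb, Rps27a, Uba1 and Uba6, 1 of the 4 tested genes passed the test as higher and 0 as lower (by limma; at an unadjusted p under 0.05, 2 higher and 2 lower; edgeR 0 and 0, DESeq2 1 and 1, limma-voom 0 and 0). Uba1, the main ubiquitin-activating enzyme, had 937, 1407, 1126 and 1301 normalized counts in VC and 1514, 1758, 1870.4 and 1870.3 in AP. The groups did not overlap (log2 fold change 0.57, SE 0.16, adjusted p = 0.0496 by limma; not past the threshold without AP.2 (0.110), AP.3 (0.140), AP.4 (0.122), VC.1 (0.103), VC.3 (0.0810) and VC.4 (0.0600), in a range of 0.000796 to 0.141 over all alternatives, scaling by total reads included). With the length trend removed Uba1 was at 0.37 and did not pass either (adjusted p = 0.141 by limma). The highest fold change was that of Uba6, at 0.62 (adjusted p = 0.162 by limma), and the lowest that of Ubb, a gene of ubiquitin repeats, with 7968, 5379, 5402 and 6448 normalized counts in VC and 4715, 3835, 4067 and 3872 in AP and no overlap of the groups (log2 fold change -0.60, SE 0.19, adjusted p = 0.0631 by limma). Of the shuttle and segregase genes Rad23b, Ubqln1, Ubqln2, Ubqln4, Vcp, Ufd1 and Nploc4, 0 of the 7 tested genes passed the test as higher and 0 as lower (by limma; at an unadjusted p under 0.05, 2 higher and 0 lower; edgeR 0 and 0, DESeq2 0 and 0, limma-voom 0 and 0). Their log2 fold changes ran from -0.17 for Ufd1, a partner of the segregase Vcp, to 0.48 for the shuttle Rad23b, with adjusted p of 0.518 and 0.117 by limma. Rad23b passed without VC.2 (0.0424), in a range of 0.00153 to 0.290 over all alternatives.

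Cell type markers differed between the same libraries, and their part in the proteasome values was not tested. For suprabasal keratinocytes (Krt1, Krt10, Lor, Ivl and Flg) limma called 5 of 5 higher and 0 lower (unadjusted p under 0.05: 5 and 0; edgeR 5 and 0, DESeq2 5 and 0, limma-voom 5 and 0), and the summed normalized counts were 2878, 8608, 5329 and 3585 in VC and 30816, 32818, 85564 and 132825 in AP, with Krt10 the most abundant. For basal keratinocytes (Krt5, Krt14, Itga6, Itgb4 and Col17a1) it called 3 of 5 higher and 0 lower (unadjusted p under 0.05: 3 and 0; edgeR 2 and 0, DESeq2 3 and 0, limma-voom 3 and 0), with sums of 23048, 76900.1, 45841 and 21375 in VC and 47897, 51509, 92112 and 136014 in AP and Krt14 the highest mean in both groups. Krt1, Krt10, Ivl and Flg passed the test without any single library, as Itga6 did. Lor did not without AP.1 (0.0608), AP.3 (0.112), AP.4 (0.102), VC.1 (0.0718), VC.2 (0.0661), VC.3 (0.0531) and VC.4 (0.0802), Itgb4 did not without AP.2 (0.0945), AP.3 (0.118), AP.4 (0.106), VC.1 (0.0963) and VC.4 (0.0663) and Col17a1 did not without AP.3 (0.0917), AP.4 (0.0837), VC.1 (0.0716) and VC.4 (0.0544). With the length trend removed, Itgb4 and Col17a1 did not pass either (adjusted p = 0.120 and 0.0641 by limma). The sums of both lists were highest in AP.4, the AP library with the largest share of proteasome reads. The other AP libraries did not keep that order. AP.1, with the lowest sums in AP, had a share of 0.503%, above the 0.496% of AP.3, whose sums were higher. Every AP library was below every VC library in this share. For skeletal muscle (Acta1, Ckm, Myh4, Tnnt3, Mylpf and Atp2a1) it called 0 of 6 higher and 0 lower (unadjusted p under 0.05: 0 and 5; edgeR 0 and 0, DESeq2 0 and 0, limma-voom 0 and 0), with sums of 48744, 68135, 33602 and 39831 in VC and 62952, 8976, 5429 and 11520.4 in AP and Acta1 the most abundant. AP.1 was as high in muscle transcripts as the VC libraries, and without AP.1 limma called all 6 lower, at adjusted p of 0.00143 to 0.0102. DESeq2 gave no adjusted p for Ckm and Tnnt3, so its count covers the other 4. For endothelium (Pecam1, Cdh5, Kdr and Tek) limma called 2 of 4 higher and 0 lower (unadjusted p under 0.05: 4 and 0; edgeR 1 and 0, DESeq2 4 and 0, limma-voom 2 and 0), with sums of 635, 502, 959.9 and 1065 in VC and 1738, 4567, 1580.4 and 1636 in AP, Pecam1 the most abundant and AP.2 the highest. Pecam1 and Cdh5 were the genes called, and Cdh5 did not pass without AP.2 (0.0887), AP.3 (0.0743), AP.4 (0.0732), VC.1 (0.0842) and VC.2 (0.0647). With the length trend removed limma called 1 of the 4 endothelium genes higher. Kdr passed without VC.4 (0.0267), in a range of 0.00133 to 0.141 over all alternatives.

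The sums of the other cell types overlapped between the groups. For fibroblasts (Col1a1, Col1a2, Col3a1, Pdgfra, Dcn and Lum) limma called 0 of 6 higher and 0 lower (unadjusted p under 0.05: 1 and 0; edgeR 0 and 0, DESeq2 0 and 0, limma-voom 0 and 0), with sums of 113491, 76169, 78165 and 214350 in VC and 248493, 185673, 133545 and 94665 in AP and Col1a1 the most abundant in AP and Col3a1 in VC by group means. VC.4 and AP.1 held the highest sum of their group. For the hair follicle (Krt15, Cd34, Lgr5, Sox9, Krt17 and Lhx2) it called 0 of 6 higher and 0 lower (unadjusted p under 0.05: 0 and 0; edgeR 0 and 0, DESeq2 0 and 0, limma-voom 0 and 0), with sums of 12704, 11735, 13862 and 8192 in VC and 13881, 10276, 20572 and 17555 in AP and Krt17 the highest mean in both groups. For adipocytes (Adipoq, Plin1, Fabp4, Cidec and Lep) it called 0 of 5 higher and 0 lower (unadjusted p under 0.05: 1 and 0; edgeR 0 and 0, DESeq2 0 and 0, limma-voom 0 and 0), with sums of 19220.2, 5305, 6885 and 10114 in VC and 10841, 16613, 8352 and 6561 in AP and Fabp4 the most abundant. The adipocyte sums overlapped fully. For red blood cells (Hba-a1, Hba-a2, Hbb-bs, Hbb-bt and Alas2) it called 1 of 5 higher and 0 lower (unadjusted p under 0.05: 1 and 1; edgeR 1 and 0, DESeq2 1 and 1, limma-voom 1 and 0), with sums of 780.4, 507, 905 and 553 in VC and 1077, 1549.6, 683 and 752 in AP and Hbb-bs the most abundant in AP and Hba-a1 in VC by group means. Hbb-bs, the gene called, did not pass without AP.2 (0.0604), AP.4 (0.0526) and VC.1 (0.0544). Of all these markers, Alas2 in VC.1 was the one value at 0.

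Promoter sequence was read for 42 of the 50 members, from RefSeq windows of 250 bases before to 50 after each start (GRCm38.p6); Psma8, Psmb1, Psmb2, Psmb7, Psmc3, Psmd3, Psmd7 and Psmg2 had no entry. Each motif was searched on both strands. TGACNNNGC, the core of the element bound by Nfe2l1 and Nfe2l2, was in 6 of 46 (13.0%) against 12.4% of 32851 promoters of all genes. The core of the interferon-stimulated response element, GAAA followed by GAAA with 2 bases between, was in 5 of 46 (10.9%) against 3.44% of 32851. TTCNNNGAA, the core of an element bound by Stat3, was in 3 of 46 (6.52%) against 8.30% of 32851. CCAAT, the box bound by Nfya, Nfyb and Nfyc, was in 15 of 46 (32.6%) against 37.4% of 32851. The members holding the first were Psmb5, Psmb6, Psmc6, Psmd9, Psmd12 and Psme4, those holding the second Psmb3, Psmd4, Psmd9, Psme1 and Psmg4, and those holding the third Psmb8, Psmd2 and Psmg1. None of the 4 motifs holds another within it. Psmd9 holds both the first and the second and Psmd4 had the smallest adjusted p, so their matches are shown with the other matches to TGACNNNGC outside exons. Each line gives the strand of the gene 5′ to 3′, all genes here being on the plus strand except Psmd4, with the motif or its reverse complement in capitals. Capitals mark only the motif a line is shown for, and the Psmd4 stretch also begins with the reverse complement of CCAAT.
Psmd9, chr5:123228144-123228182: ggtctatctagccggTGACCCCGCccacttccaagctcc
Psmc6, chr14:45329582-45329620: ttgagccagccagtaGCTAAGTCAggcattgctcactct
Psmd12, chr11:107479278-107479304: tctGCTGTGTCAcatttgcccccctca
Psmd9, chr5:123228016-123228055: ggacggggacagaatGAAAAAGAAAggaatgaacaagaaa
Psmd4, chr3:95042670-95042709: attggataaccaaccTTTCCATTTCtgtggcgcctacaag
A match describes the letters in the window and not a bound site. The members with a match to TGACNNNGC had log2 fold changes from -0.59 to 0.47, with Psmd9 the lowest and Psme4 the highest.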

How the data were processed

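The authors mapped reads to mm10 and counted them per gene, by HTSeq or featureCounts depending on the passage of their record, and versions are not given in the sources used here. The deposited signal is a count per gene normalized by the authors with DESeq2, and the deposited log2 fold changes and p-values of their own comparison were not used. No deposited score was used. Library columns map to groups only. Dividing by the smallest step in each library gave whole reads for 150160 of 150160 values at a tolerance of 0.01 reads, and edgeR on these reads called 992 genes higher and 737 lower.

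A gene was tested where 4 or more of the 8 libraries reached 3 normalized counts, as 15964 of 18770 did. limma (version 3.58.1, R 4.3.3, empirical Bayes with intensity trend) was fitted to log2 of the value plus a pseudocount of 1, and p was adjusted by Benjamini-Hochberg over all tested genes, two-sided, with a threshold of 0.05. edgeR 4.0.16, DESeq2 1.42.0 and limma-voom were run on the recovered reads. Between replicates of a group, chi-square per degree of freedom was 15.8 to 78.9. The procedure was tested on simulated data.

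Lengths are those of the longest coding transcript in GENCODE M21 (GRCm38), where 18770 of 18770 gene identifiers matched. The length trend was a loess curve per library. The strandedness of the counting is not stated. The genes given per-library values were those past the threshold, the lowest and highest of each role, the constitutive and immunoproteasome catalytic subunits, the activators and the inhibitor, and in each pathway list those past the threshold and the lowest and highest. 4 genes of the pathway lists are not reported here, and the counts of those lists are without them. The members and the lists of pathway and marker genes were chosen with earlier results of these data known. Psma3, Psmd6, Psmd14, Psmg1, Psmd2, Psme2b, Krt10 and Cd74, and the marker values, were singled out after their values were seen.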

Additional observations from a re-analysis of the deposited data

Results flagged for a closer look

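Among 72 sets of 4 libraries, 7 held a library far from the other 3 of its group, on the log2 scale, where chance gives about 1 in 20 sets. The sets share the same 8 libraries and are not independent, so an excess over that rate cannot be judged. Psmb4 was highest in VC.1, at 2039 normalized counts, and Psmd4 in VC.2, at 1156. Psmb6 and Psme1 were both lowest in AP.3, at 612 and 441 normalized counts. Psmd8 was lowest of its group in VC.3, at 993 normalized counts, and Psmg3 highest of its group in AP.4, at 47.2. The mean log2 level of the regulatory particle was highest in VC.2, at 9.68. The values fall on 5 different libraries, and their causes were not tested.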

How the results depend on the processing

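The count of proteasome genes called lower, 7 in the main comparison, was 6 to 10 with edgeR, DESeq2, limma-voom, other pseudocounts, other filters, upper-quartile or recomputed size factors and drawn-down reads. It was 1 without the intensity trend, 4 with mitochondrially encoded genes left out and the remaining reads scaled by their total, 3 with the length trend removed, 0 with scaling by total reads and 0 to 4 with 1 library left out. By the criteria of the study's methods it was 5. The count called higher, 0 in the main comparison, was 30 with scaling by total reads, 1 with the length trend removed and 0 to 1 with 1 library left out. Over all tested genes, 1011 higher and 639 lower became 1677 and 1362 with DESeq2, 376 and 216 without the trend, 8657 and 70 with scaling by total reads, 541 and 486 with the length trend removed, and 209 to 1082 and 94 to 817 with 1 library left out. Scaling by total reads turned the medians of the roles to 0.56 (core), 0.66 (regulatory), 0.44 (immunoproteasome), 0.46 (activators), 0.41 (chaperones) and 0.56 (all members). With mitochondrially encoded genes left out, scaling by total reads gave -0.27 (all members). Under each alternative other than scaling by total reads with those genes in, the medians of these 5 roles and of all members stayed below 0. Removing the length trend moved them to -0.0325 (core), -0.11 (activators), -0.17 (chaperones) and -0.0871 (all members), a shift whose cause was not tested. With 1 library left out the medians were -0.39 to -0.24, -0.25 to -0.12, -0.56 to -0.25, -0.48 to -0.28, -0.60 to -0.35 and -0.39 to -0.26 in the same order as the 6 above. The AP minus VC difference of the log2 ratio of Psmb8 to Psmb5 was -0.29 to 0.15, of Psmb9 to Psmb6 0.0591 to 0.34 and of Psmb10 to Psmb7 -0.84 to -0.38 with 1 library left out. Of the members with per-library normalized counts and a test, scaling by total reads turned the sign of 19: Psma4 0.49, Psmb1 0.20, Psmb10 0.34, Psmb4 0.32, Psmb5 0.55, Psmb6 0.50, Psmb8 0.44, Psmb9 0.66, Psmc3 0.66, Psmc3ip 0.52, Psmc4 0.39, Psmd4 0.26, Psmd8 0.61, Psmd9 0.28, Psme1 0.46, Psme2 0.23, Psme3ip1 0.35, Psmf1 0.54, Psmg2 0.57. Psme2b, given in reads, also turned, to 0.21. Psma6, near 0, turned to -0.0302 with upper-quartile factors and lay at -0.0705 to 0.10 with 1 library left out, and Psmb9 turned to 0.0539 with the length trend removed; the cause was not tested. No paired analysis was possible because the replicate numbers of the groups are not shared and the column numbers do not match them. Psme2b had 6 to 28 reads per library and Psmg3 40 to 74, which limits their precision.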
